A study of Mus musculus with 3 samples.

Results

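The cells described here were chosen by their own counts, as cells of the bone marrow stroma libraries that held at least 1 unique molecular identifier (UMI, 1 counted transcript) of Plac8 and at least 1 of Ly6a. They also held fewer than 5 UMIs of Cxcl12, fewer than 2 of Pf4, and none of Lepr or Cdh5, genes of leptin receptor-positive (LepR+) stroma, platelets and endothelium. Of 24081 cells kept in 3 libraries, 419 met the rule, and 407 of them came from the library of 24-mo-old mice. These are called Plac8+Ly6a+ cells below. Because Plac8 and Ly6a chose them, their levels of both genes are a description, and so is every other level measured in the same cells.

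Untreated male and female mice on a C57BL/Ka background were studied at 3 ages, 2, 12 and 24 mo. Crushed femurs and tibias were digested with enzymes, and cells negative for lineage markers, CD45 and CD71 were sorted, where CD45 marks blood cells and CD71, the transferrin receptor encoded by Tfrc, marks red cell precursors. The label protocol names CD45, Ter119 and lineage markers for the stain. Each age was 1 library of cells from 3 mice, made with the 10x Genomics 3′ v3.1 chemistry, and no barcode is tied to a mouse, so age, library and mouse cannot be told apart and no age has a replicate. The libraries held 92342526, 84853330 and 104596341 UMIs at 2, 12 and 24 mo, of which 7533, 6821 and 9727 cells were kept. Barcodes found also in another library numbered 46, 50 and 56, and 3 of the 24 mo Plac8+Ly6a+ cells carried one. Intervals in brackets are exact 95% intervals and cover counting error only.

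Interferons are secreted proteins that bind receptors on the cell surface and, through the kinases Jak1, Jak2 and Tyk2 and the factors of the STAT and IRF families, switch on a large group of genes. These include GTPases that act against intracellular microbes, antiviral proteins, the immunoproteasome, which replaces subunits of the constitutive proteasome when peptides are made for display, and the MHC molecules that display them. Ly6a encodes Sca-1, a surface protein of stem cells, some endothelium and some stroma that interferon raises in many blood cells. Plac8 encodes a small cysteine-rich protein known from immune cells and early blood progenitors. In the GRCm38 annotation Plac8 spans chr5:100553725-100572245 and Ly6a chr15:74994877-74998031, both on the minus strand, and the counts cover whole genes. Red cell precursors arise from progenitors that express Gata1, Klf1, Epor and the carbonic anhydrase Car1, and then fill with hemoglobin while they lose surface and nuclear genes.

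Promoter sequence is shown for 6 genes on which the description turns: Plac8, by which the cells were chosen, Gbp2 and Psmb8, named as their markers, Gbp3 and Irf1, which are among the most raised widespread genes below, and Igtp, whose stretch holds both motifs searched. They were chosen after the levels and the matches had been seen. Each line gives the 110 bases before a RefSeq start site on GRCm38.p6, 5′ to 3′ on the gene's strand. Capitals mark matches to GAAANNGAA, the core of the interferon-stimulated response element bound by IRF factors, or to TTCNNNGAA, the gamma-activated site bound by STAT factors, both searched on both strands. The stretches lie at chr5:100572206-100572315 on the minus strand for Plac8 and, on the plus strand, at chr3:142620553-142620662 for Gbp2, chr3:142559934-142560043 for Gbp3, chr11:58199446-58199555 for Igtp, chr11:53769904-53770013 for Irf1 and chr17:34198085-34198194 for Psmb8.
Plac8: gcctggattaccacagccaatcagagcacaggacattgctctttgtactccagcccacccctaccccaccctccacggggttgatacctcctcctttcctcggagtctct
Gbp2: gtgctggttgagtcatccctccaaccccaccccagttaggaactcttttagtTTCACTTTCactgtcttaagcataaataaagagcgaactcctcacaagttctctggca
Gbp3: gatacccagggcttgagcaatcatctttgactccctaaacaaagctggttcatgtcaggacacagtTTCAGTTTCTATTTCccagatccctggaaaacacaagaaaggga
Igtp: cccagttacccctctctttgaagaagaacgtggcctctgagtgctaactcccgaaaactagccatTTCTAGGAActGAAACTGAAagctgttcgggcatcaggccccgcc
Irf1: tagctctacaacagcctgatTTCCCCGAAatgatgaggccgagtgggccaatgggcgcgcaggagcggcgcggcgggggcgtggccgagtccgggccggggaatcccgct
Psmb8: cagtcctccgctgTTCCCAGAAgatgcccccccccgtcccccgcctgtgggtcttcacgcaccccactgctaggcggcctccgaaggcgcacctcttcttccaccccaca
In Gbp2 the first motif starts 58 bases before the start site, on the minus strand, and in Gbp3 it occurs in 2 overlapping copies that start 44 and 38 bases before it, also on the minus strand. Igtp holds the second motif 45 bases and the first 34 bases before its start. Irf1 and Psmb8 hold the second motif, which reads the same on both strands, 90 and 97 bases before theirs. The Plac8 stretch holds neither set of letters. Plac8, Gbp3 and Irf1 each have another RefSeq start site, not shown, with no match to either motif.

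Over windows from 250 bases before to 50 bases after the start, GAAANNGAA was found in 8.56% and TTCNNNGAA in 8.3% of all 32851 RefSeq promoters. Among interferon-induced GTPases, 10 of 17 listed genes had a promoter in the table, and 9 of the 10 held the first motif and 6 the second. Of the antiviral interferon-stimulated genes 41 of 52 had one, of which 24 held the first motif and 6 the second. All 5 immunoproteasome genes had one, and 1 held each motif. Of 6 genes of MHC class II presentation none held either. A match is a run of letters and was not tested as a binding site. Ly6a was not in the table.

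The share of kept cells that met the rule was 0.0265% [0.00322 to 0.0959] at 2 mo (2 cells), 0.147% [0.0703 to 0.269] at 12 mo (10 cells) and 4.18% [3.79 to 4.60] at 24 mo (407 cells). The 24 mo library thus gave 97.1% of them. The sort removed CD71+ and CD45+ cells, so a share among sorted cells can move with the gates. After thinning to 2000 UMIs per cell, 114 cells of the 24 mo library met the rule, or 1.55%. This share is of a smaller base than the 9727 kept cells, since cells with fewer UMIs cannot be thinned to 2000.

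Among the 407 cells Plac8 had 3175 UMIs, with a median of 5 per cell, quartiles of 2 and 10 and a highest value of 137. Ly6a had 1686 UMIs, with a median of 2 per cell, quartiles of 1 and 5 and a highest value of 40. Plac8 stood at the minimum of 1 UMI in 74 cells and Ly6a in 145. Just inside the limits, the 45 cells with 1 UMI of each had a median of 59.1 UMIs of interferon-regulated genes per 10000, where the count covers 69 genes in the lists of GTPases and antiviral genes and the denominator leaves out hemoglobin. The 233 cells with at least 2 UMIs of each had 74.2. Just outside, the 449 cells with Plac8 but no Ly6a had a median of 59.0, and the 177 with Ly6a but no Plac8 had 65.7. On this measure the cells on both sides of the Plac8 and Ly6a limits had similar values. The 7 cells outside by Pf4 alone had a median of 83.5. Cells outside by the stromal and endothelial genes stood higher, at 195 for the 19 outside by Cxcl12 alone and 230 for the 384 outside by Lepr or Cdh5.

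Plac8 and Ly6a are both genes of early blood progenitors, but the other markers of the 24 mo cells were erythroid. All 12 genes of the erythroid progenitor list were detected, and every one of the 407 cells held UMIs of the list, with a median of 114 per cell. Car1 stood at 4072 CPM, here and below UMIs per 1000000 UMIs that are not from hemoglobin genes. Gata1, the master factor of red cell development, had UMIs in 68.3% of cells, and Klf1, which switches on the globin genes, in 82.3% (335 cells). Tfrc, whose protein the sort excluded, stood at 417 CPM with UMIs in 80.3% of cells.

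The stem and multipotent progenitor list had 15 of 16 genes detected, with 2206 UMIs in 91.2% of cells and 76 cells at 10 or more. Its summed level was 360 CPM, against 438 CPM in the Klf1+ comparison cells described below, and Lmo2, which red cell precursors also express, gave 1377 of the UMIs and Myb 467. Several genes of the list that define those cells were at or near 0. Cd34 had 1 UMI in all 407 cells, Flt3 had 2, and Slamf1 had none. Kit, the receptor for stem cell factor, had 98 UMIs in 16.2% of cells. Ptprc, which encodes CD45, had 52 UMIs, in 7.62% of cells. The lymphoid progenitor list had 719 UMIs in 65.4% of cells, against 54.5% of comparison cells, of which 603 were of Ikzf1, while Dntt and Pax5 were at 0.

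UMIs of several mature blood cell lists came from a few cells. The B and plasma cell list summed to 9814 UMIs, of which 99.0% lay in 1 cell, and 2 cells held 10 or more. The neutrophil list summed to 7954 UMIs, of which 63.9% lay in 1 cell, with 4 cells at 10 or more, and the monocyte list to 528 UMIs with 4 such cells. The basophil list summed to 338 UMIs, with 94.4% in 1 cell. Over these 4 lists and those of eosinophils and of granulocyte and monocyte progenitors together, 9 of the 407 cells held at least 10 UMIs. The plasmacytoid dendritic cell list was spread more widely, with 1931 UMIs in 91.6% of cells and 41 cells at 10 or more, against 44.9% of comparison cells described next. Of those UMIs 1679 were of Bst2, which is also in the antiviral list, and Siglech, a defining gene of that cell type, had 17. Genes of NK and innate lymphoid cells had UMIs in 26.0% of cells, against 32.4% of comparison cells. The part of such cells in the results was not tested. LepR+ stromal genes summed to 32.3 CPM, against 37.1 CPM in the comparison cells, for which Lepr was not limited. The plot of marker lists shows the same order, with erythroid lists far above all others.

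**Figure D1:**
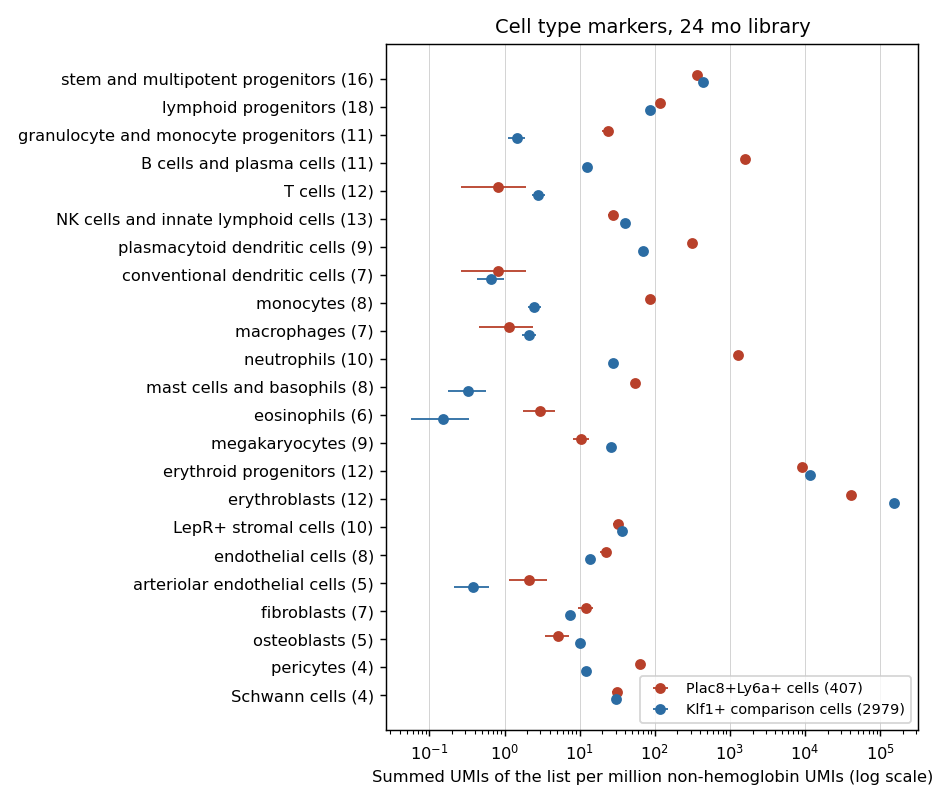
Summed UMIs of each cell type marker list in CPM (log scale, number of genes in parentheses) in the 407 Plac8+Ly6a+ cells and the 2979 Klf1+ comparison cells of the 24 mo library, with bars for exact 95% counting intervals. The erythroid progenitor list reaches 9229 and 11530. The erythroblast sums count hemoglobin UMIs over a denominator without them, and the sums for B and plasma cells, neutrophils and basophils come mostly from 1 cell each.

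To show where these cells differed from other red cell precursors of the same library, they were compared with 2979 cells that held at least 1 UMI of Klf1, none of Plac8 or Ly6a, under 5 of Cxcl12 and at least 2000 UMIs in all. Depth was alike, with medians of 12018 UMIs and 2535 genes in Plac8+Ly6a+ cells and 12938 and 2577 in the comparison cells. The mitochondrial share had medians of 2.59% and 2.25%. Hemoglobin differed, with medians of 0.490% and 6.04% of all UMIs. Levels were summed over the cells of each group, and a gene was counted as higher or lower past a 2-fold ratio where both groups together held at least 50 UMIs. With 1 library there is no replicate of this difference, and no test was run.

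Of 9762 genes counted, 719 (7.37%) were at least 2-fold higher in Plac8+Ly6a+ cells and 696 (7.13%) at least 2-fold lower, with a median log2 ratio over all genes of 0.05. When hemoglobin was kept in the denominator the counts were 951 and 532. Without the 9 cells with at least 10 UMIs of immune lists they were 639 and 700. The median of the interferon-induced GTPases described next was 3.38 with these cells and 3.37 without them.

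Interferon-induced GTPases, which act against microbes inside cells, were higher in 14 of 14 cases against 7.37% of all genes, with a median log2 ratio of 3.38. Their summed level was 1278 CPM in Plac8+Ly6a+ cells and 189 CPM in the comparison cells, a ratio of 6.75 [6.54 to 6.97]. Iigp1, a GTPase that targets the vacuoles of parasites, stood at 290 CPM [276 to 303] against 11.1, a ratio of 26.2 [23.6 to 29.1], and had UMIs in 77.1% of cells against 7.92%. Gbp2, a guanylate-binding protein, stood at 100 CPM [92.5 to 109] against 3.26. Ifi47 and Igtp, of the same immunity-related families, were 10.2-fold and 6.52-fold higher, and Gbp7, the lowest ratio of those named here, was 2.73-fold higher. None of these ratios rested on 1 cell, since no single cell held more than 2.93% of the UMIs of these 5 genes.

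Antiviral interferon-stimulated genes were higher in 31 of 44 cases and lower in none at the 2-fold limit, with a median log2 ratio of 1.59. Ifitm3, which blocks virus entry, had the highest level named here, at 1220 CPM against 298. Zbp1, a sensor of nucleic acids, stood at 165 CPM against 11.0, and Bst2, which tethers budding viruses, at 274 against 41.4. Lgals9, a secreted lectin, was 5.88-fold higher. Isg15, a ubiquitin-like protein, missed the 2-fold limit at 828 CPM against 441. Rsad2, which encodes viperin, stood at 83.6 CPM against 147, the opposite direction.

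Among STAT and IRF factors, 6 of 9 genes were higher and none lower, with a median log2 ratio of 2.42. Irf1 was 15-fold higher and Irf7 2.74-fold higher, while Irf9, which acts with STAT factors downstream of type I interferons, had a ratio of 0.891 [0.773 to 1.02]. Socs1, a feedback inhibitor of the pathway that is itself induced, stood at 10.3 CPM against 0.941. Interferon receptors and kinases were higher in 2 of 8 cases, with a median log2 ratio of 0.15. Those 2 were Ifngr1, at 34.3 CPM against 16.0, and Ifngr2, at 4.57 against 2.21, which form the receptor for interferon gamma. Ifnar1 and Ifnar2, which form the receptor for type I interferons, had ratios of 0.878 and 1.01. Jak1, a kinase that serves both receptors, had a ratio of 0.959.

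The interferons themselves were scarcely counted in any library. Over 21 interferon genes, 5, 6 and 2 UMIs were found in all kept cells at 2, 12 and 24 mo, and none in the Plac8+Ly6a+ cells of 24 mo. Ifnb1 had none at any age, and Ifng had 1, 1 and 0. Droplet counts of cells sorted against CD45 would miss an interferon made by other cells.

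Antigen processing genes were higher as well. All 5 immunoproteasome genes were higher, with a median log2 ratio of 2.65. Psmb8, a catalytic subunit, stood at 236 CPM [224 to 249] against 10.1, and Psmb9 and Psmb10, the other catalytic subunits, were 6.28-fold and 7.88-fold higher. The activator subunits Psme1 and Psme2 were 3.22-fold and 3.27-fold higher. Of 16 constitutive proteasome genes none passed 2-fold in either direction, and their median log2 ratio was 0.29. Psmb5, Psmb6 and Psmb7, the constitutive counterparts of the 3 catalytic subunits, had ratios of 1.26, 1.21 and 1.15.

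MHC class I presentation genes were higher in 12 of 15 cases, with a median log2 ratio of 1.58. B2m, the invariant chain of class I molecules, stood at 2088 CPM against 949, H2-K1 at 801 against 224 and the peptide transporter Tap1 at 77.7 against 25.5. MHC class II genes were at low levels but all 6 counted were higher, with a median log2 ratio of 5.43. In the comparison cells H2-Aa, H2-Eb1 and Cd74 had 22, 39 and 10 UMIs. They reached the minimum of 50 through the Plac8+Ly6a+ cells, which shapes this count and median. H2-Aa and H2-Eb1, an alpha and a beta chain, stood at 36.6 and 53.6 CPM against 0.559 and 0.992, and had UMIs in 28.7% and 37.3% of Plac8+Ly6a+ cells. Cd74, the class II chaperone, had 148 UMIs, of which 51.4% lay in 1 cell. Ciita, the activator of class II genes, had 9 UMIs.

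Lists of red cell maturation ran the other way. All 12 erythroblast genes were at least 2-fold lower, against 7.13% of all genes, with a median log2 ratio of −1.72. The anion exchanger Slc4a1 stood at 150 CPM against 550 and Alas2, the first enzyme of heme synthesis, at 92.8 against 310. Of 12 erythroid progenitor genes 3 were lower and none higher, with a median log2 ratio of −0.48. Epor and Gfi1b had ratios of 0.953 and 0.982.

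Cell cycle lists leaned lower in their medians, though few genes passed the limit. Of 42 S phase genes 2 were lower and of 52 G2 and M phase genes 8 were lower, against 7.13% of all genes. The S phase count did not exceed that share. The median log2 ratios were −0.50 and −0.72. Mki67 stood at 455 CPM against 1008 and Pcna at 468 against 722. Immediate early genes were higher in 6 of 12 cases and lower in 1, but 66.7% of Egr1 UMIs and 36.4% of Fos UMIs lay in 1 cell each. Of the stem and multipotent progenitor list, 3 of 8 genes counted were higher and none lower, with a median log2 ratio of 0.97, while the summed level of the list was 0.823-fold that of the comparison cells. Kit stood at 16.0 CPM against 8.01, Myb at 76.3 against 44.3, Cd48 at 16.0 against 0.966 and Lmo2 at 225 against 368.

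**Figure D2:**
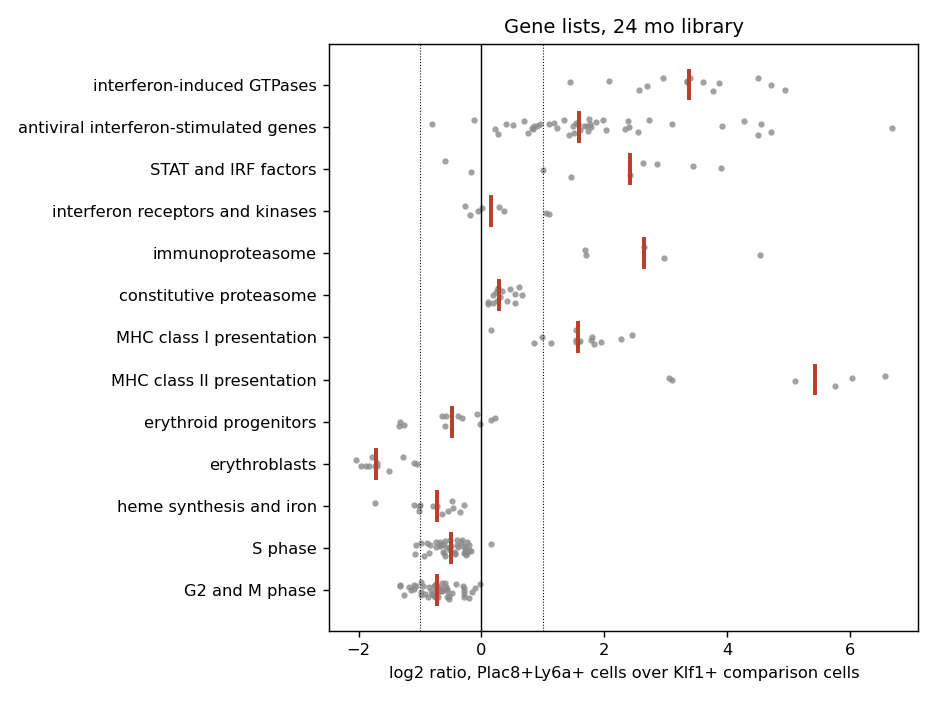
The log2 ratio of Plac8+Ly6a+ cells over Klf1+ comparison cells of the 24 mo library for each gene counted (grey points) and the median of each list (red bars), with dotted lines at the 2-fold limits. Interferon-induced GTPases have a median of 3.38 and erythroblast genes of −1.72, and the 16 constitutive proteasome genes lie between the limits.

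The 12 highest ratios, among genes with at least 100 UMIs in both groups together, mostly described single cells. In order, they were Prss34, Ighg2b, Mcpt8, Ly6c2, Snorc, Igkc, Jchain, Wfdc17, Ifitm1, Cd74, Tyrobp and Chil3, mainly genes of basophils, plasma cells and myeloid cells. In 10 of the 12, over 50% of the UMIs lay in 1 cell. Prss34 and Mcpt8, proteases of basophils, were found in 1 cell each, and Igkc, an antibody light chain, had 9552 UMIs in 66 cells, of which 99.2% were in 1. Such genes describe those cells rather than the 407 as a group.

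The 12 lowest were Adam33, Klhdc7a, Aldh3b2, Nefh, Dlg3, Zcwpw1, Cacna1g, Neto2, Ugt8a, Dsc2, Adipoq and Fam83d, each with at most 2 UMIs in Plac8+Ly6a+ cells. Aldh3b2 had 0 UMIs against 333 in the comparison cells, and Adam33 had 1 against 269. Lepr, Cdh5 and Pf4 were limited in the Plac8+Ly6a+ cells but not in the comparison cells. The place of Adipoq, a gene of the LepR+ stromal list, may thus be partly set by the choice. At this depth a count of 0 in the 407 cells allows a level of up to 0.490 CPM.

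A ranking limited to the 4375 genes with UMIs in at least 25% of Plac8+Ly6a+ cells, added after the values had been seen, gave other genes. The highest ratios were those of H2-Aa (65.4 [42.1 to 106]), H2-Eb1 (54.0), Gm4951 (38.3), Gbp2 (30.8), Iigp1 (26.2), Psmb8 (23.3), Ifi203 (22.7), Gm4841 (20.9), Mndal (19.5), Zbp1 (15), Irf1 (15) and Gbp3 (14.7). The filter used the Plac8+Ly6a+ cells alone, so it kept genes that are high in them.

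The mice behind the cells could be told apart in part by sex. Xist, the RNA of the silenced X chromosome, marks cells of female mice, and 4 genes of the Y chromosome (Uty, Kdm5d, Ddx3y and Eif2s3y) mark cells of male mice. Of the 24 mo Plac8+Ly6a+ cells, 282 held Y-linked UMIs alone, 0 held Xist alone, 4 held both and 121 neither, so 100% [98.7 to 100] of those with 1 kind were Y-linked. In the comparison cells 872 were Y-linked and 1203 held Xist, a Y-linked share of 42.0% [39.9 to 44.2], and in all kept cells of the library the share was 62.8%. At a minimum of 2 UMIs, 169 Plac8+Ly6a+ cells were Y-linked and 0 held Xist. The cells thus came, as far as these genes show, from the male mice of 1 pool, and the number of those mice is not known. Sex and mouse cannot be told apart here.

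Plac8 and Ly6a were next taken as single genes over all Klf1+ cells of the library, chosen without regard to either. Plac8 had UMIs in 33.4% [30.9 to 35.9] of 1420 Y-linked cells and in 0.248% [0.0512 to 0.723] of 1209 cells with Xist. Ly6a had UMIs in 22.7% [20.6 to 25] and 0.248% of the same cells. Median depths were 14796 and 15237 UMIs, and at 2000 UMIs per cell the shares were 12.9% and 0.165% for Plac8 and 6.97% and 0.0827% for Ly6a. The cells with Xist were in the same library. The part of free RNA in these shares was not tested.

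At the younger ages both genes were rare in Klf1+ cells of either sex. Plac8 had UMIs in 0.318% of Y-linked cells and 0.489% of cells with Xist at 2 mo, and in 3.73% and 0.404% at 12 mo. Ly6a had UMIs in 2.29% and 0.978% at 2 mo and in 3.42% and 0.152% at 12 mo. The 12 mo Y-linked cells were the deepest, with a median of 27267 UMIs, and after thinning 0.932% held Plac8 and 0.311% Ly6a.

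The interferon lists divided the Klf1+ cells in the same way. Among 24 mo cells with Xist the median was 14.0 UMIs per 10000, and among Y-linked cells it was 47.0, with quartiles of 17.0 and 70.4. At 2 mo the medians were 17.2 for Xist and 15.1 for Y-linked cells, and at 12 mo 21.8 and 12.5. Plac8+Ly6a+ cells had a median of 69.4. The plot of interferon-list UMIs by library and sex shows 1 mode in each younger group. It shows a broad, 2-peaked spread in the 24 mo Y-linked cells, and the Plac8+Ly6a+ cells sat at its upper peak. Some Plac8+Ly6a+ cells are among those Y-linked cells, and all were chosen on Ly6a, itself interferon-regulated, so this place was partly set by the choice.

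**Figure D3:**
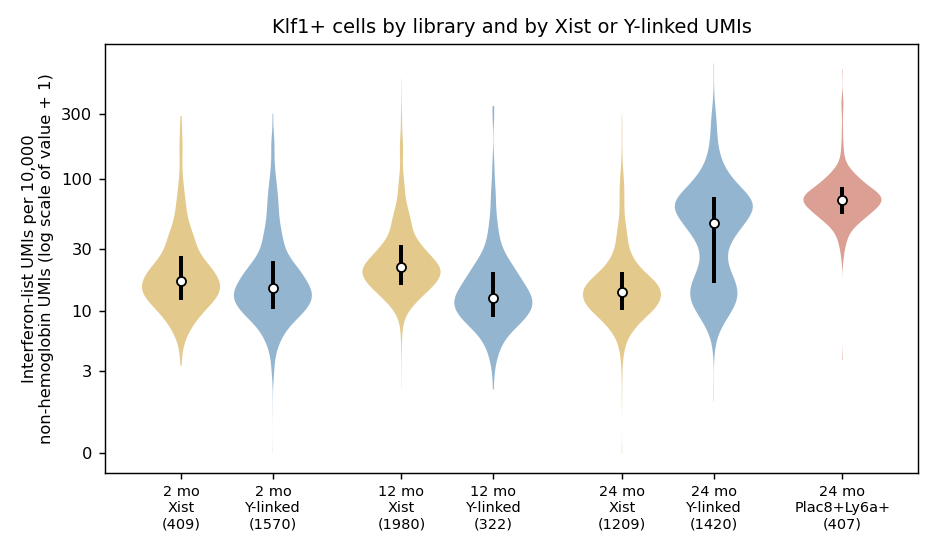
UMIs of 69 interferon-regulated genes per 10000 non-hemoglobin UMIs (axis: log of value + 1) in Klf1+ cells with Xist or Y-linked UMIs of each library, and in the 407 Plac8+Ly6a+ cells, of which 335 held Klf1. Shapes show the spread over cells, circles the medians and thick lines the quartiles. The 24 mo medians are 14.0 (Xist), 47.0 (Y-linked) and 69.4, and the Plac8+Ly6a+ group overlaps the 24 mo Y-linked group.

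Not all Y-linked precursors with interferon-regulated genes met the rule. Of the 1420 Y-linked Klf1+ cells at 24 mo, the 872 with neither Plac8 nor Ly6a had a median of 22.8 and quartiles of 13 and 62.7. The 225 with Plac8 alone had 54.1, the 74 with Ly6a alone 57.8 and the 249 with both 67.0. The upper quartile of the first group overlapped the lower quartile of the last, 55.8. Ly6a is itself interferon-regulated, so its part in this order is set by the choice of cells.

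Against the Y-linked comparison cells alone, 509 of 8665 genes (5.87%) were higher and 570 (6.58%) lower. All 14 GTPases stayed higher, with a median log2 ratio of 2.58, and their sum was 4.41-fold higher. Immunoproteasome genes were higher in 5 of 5 cases and MHC class I genes in 8 of 15, while antiviral genes were higher in 21 of 44 and lower in 1. Isg15 had a ratio of 1.05 in this comparison. Of the Plac8+Ly6a+ cells 121 held no sex-linked UMI and stayed in this comparison.

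When hemoglobin was also held under 1% of UMIs in both groups, 300 Plac8+Ly6a+ cells were set against 168 Y-linked comparison cells, whose interferon-list median was 14.1. Of 7071 genes 327 (4.62%) were higher and 55 (0.778%) lower. GTPases were higher in 13 of 13 cases with a median log2 ratio of 3.42, antiviral genes in 37 of 40 with 2.11, immunoproteasome genes in 5 of 5 and MHC class I genes in 13 of 15. Isg15 was now 9.84-fold [8.60 to 11.3] and Rsad2 5.80-fold [3.55 to 10.1] higher. In these comparison cells Gbp2, Ifi203 and Ddx58 had 9, 8 and 3 UMIs, against 550, 307 and 96 in Plac8+Ly6a+ cells. They reached the minimum of UMIs over both groups through the Plac8+Ly6a+ cells. A gene this scarce in the comparison cells was counted only where it was high in the others. This partly shapes the counts and medians of these lists.

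In that comparison the lists of maturation and division no longer passed the limit. Of 12 erythroblast genes 0 were past 2-fold, with a median log2 ratio of −0.39, and of 12 erythroid progenitor genes 0, with −0.21. Both groups were chosen for low hemoglobin, and the erythroblast list holds hemoglobin genes, so its result was partly set by the choice. Median hemoglobin was still 0.416% in the Plac8+Ly6a+ cells and 0.711% in the comparison cells. No S phase or G2 and M phase gene of 42 and 51 counted was past 2-fold. Myb had a ratio of 0.931 and Kit of 1.42 [0.978 to 2.09], while Cd48 remained 20.1-fold [6.66 to 99.5] higher. Cd48 was counted under the same minimum of UMIs over both groups. The comparison cells held no Plac8 or Ly6a by choice, and a choice against Ly6a is also a choice among interferon-regulated levels.

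Plac8+Ly6a+ cells and the 319 Klf1+ cells with Plac8 but no Ly6a stood closer. Of 7890 genes 139 (1.76%) were higher and 126 (1.6%) lower. GTPases were higher in 6 of 14 cases with a median log2 ratio of 0.80, immunoproteasome genes in 2 of 5 with 0.65, and MHC class I genes in 0 of 15 with 0.25. Erythroblast genes were lower in 9 of 12 cases. The cells with Plac8 alone were Y-linked in 216 of the 219 cases with 1 kind of sex-linked UMI.

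The share of cells with Plac8 and Ly6a was lower where hemoglobin was higher. Among 24 mo Y-linked Klf1+ cells with hemoglobin under 0.5% of UMIs, 62.9% [55.5 to 69.9] of 186 met the rule, against 18.5% of 238 cells at 0.5 to 1%, 15.3% of 398 at 1 to 5%, 4.11% of 365 at 5 to 20% and 2.15% [0.700 to 4.94] of 233 above. At 2000 UMIs per cell, Plac8 was found in 54.3%, 17.6%, 9.05%, 4.66% and 1.72% of these bins, and Ly6a in 30.1%, 6.72%, 6.03%, 3.01% and 0.429%. In cells with Xist both were at or near 0 in all 5 bins.

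Interferon-list UMIs did not fall in the same steps. Their medians over the 5 bins were 65.8, 18.4, 40.9, 50.3 and 61.6 per 10000 in Y-linked cells, and 13.4, 12.7, 13, 13.8 and 21.7 in cells with Xist. The share of Y-linked cells above the 95th percentile of the Xist cells was 89.8% in the lowest bin and 48.3%, 63.1%, 65.2% and 30.5% in the next ones. The highest bin had a wider spread in both sexes, with quartiles of 21.3 and 141 in Y-linked cells. Interferon-regulated UMIs were thus found along the whole range of hemoglobin, and Plac8 and Ly6a mainly at its low end.

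**Figure D4:**
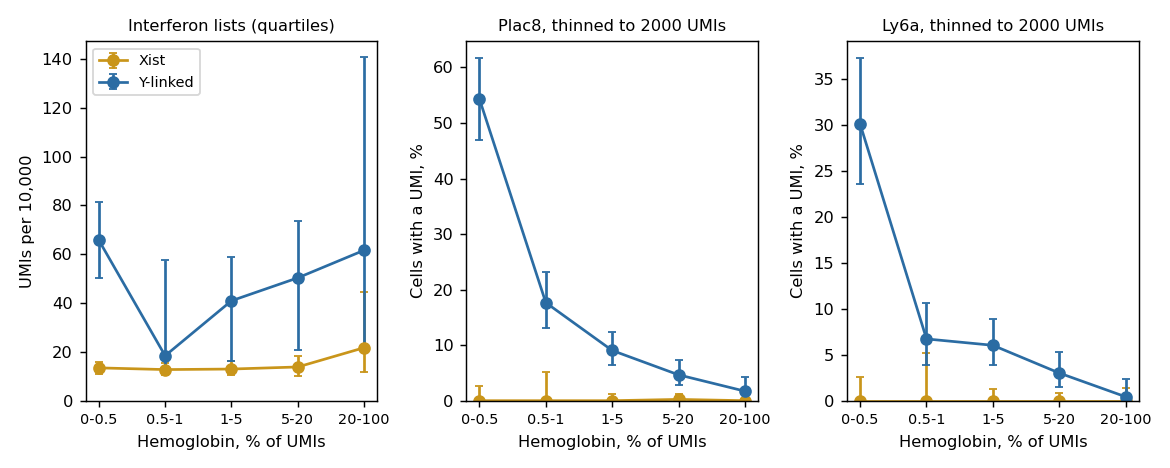
Klf1+ cells of the 24 mo library in 5 bins of hemoglobin share, with Y-linked UMIs or with Xist. The left panel gives the median and quartiles of interferon-list UMIs per 10000 non-hemoglobin UMIs, the others the percent of cells with Plac8 or Ly6a at 2000 UMIs per cell with exact 95% intervals. Plac8 runs from 54.3% to 1.72% in Y-linked cells, while the interferon medians run 65.8, 18.4, 40.9, 50.3 and 61.6.

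Levels between ages were compared in groups chosen without Ly6a. All Y-linked Klf1+ cells at 24 mo (1420) were set against those at 2 mo (1570) and 12 mo (322), comparisons that share the 24 mo cells. At 24 mo against 2 mo, 350 of 9879 genes (3.54%) were higher, and GTPases were higher in 13 of 14 cases with a median log2 ratio of 3.45, antiviral genes in 30 of 43 and immunoproteasome genes in 4 of 5. Against 12 mo, 246 of 9311 genes (2.64%) were higher and 68 (0.73%) lower, with GTPases in 14 of 14 cases (2.78), antiviral genes in 34 of 42 and immunoproteasome genes in 4 of 5. Constitutive proteasome genes passed 2-fold in 0 of 16 cases in both.

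Iigp1, Zbp1 and Psmb8 are given as examples. They were among the highest ratios of the 24 mo Plac8+Ly6a+ cells, some of which are among these Y-linked cells. Iigp1 stood at 98.1 CPM in 24 mo Y-linked Klf1+ cells, 1.29 at 12 mo and 3.72 at 2 mo, and in cells with Xist at 0.105, 1.34 and 2.79. Zbp1 stood at 64.0, 0.235 and 0.149 CPM in Y-linked cells at 24, 12 and 2 mo and had no UMI in the 24 mo cells with Xist. Psmb8 stood at 63.6 CPM in the 24 mo Y-linked cells and between 3.27 and 18.7 in the other 5 groups. For these 3 genes the 24 mo Y-linked cells had the highest of the 6 levels, which the choice of genes favours.

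In Klf1+ cells with Xist the same lists did not rise with age. At 24 against 2 mo, 53 of 8904 genes (0.595%) were higher and 75 (0.842%) lower, with GTPases higher in 0 and lower in 1 of 5 cases, antiviral genes lower in 5 of 35 and MHC class I genes lower in 6 of 15. Against 12 mo, 11 of 9786 genes (0.112%) were higher and 124 (1.27%) lower, with GTPases lower in 6 of 8 cases and antiviral genes in 14 of 38. Summed GTPase levels were 116, 185 and 170 CPM at 24, 12 and 2 mo in cells with Xist and 580, 131 and 150 CPM in Y-linked cells.

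Within a library, Y-linked cells exceeded cells with Xist at 24 mo and not at the younger ages. At 24 mo GTPases were higher in 14 of 14 cases, beside 5.45% of 9629 genes higher and 1.08% lower, and antiviral genes in 31 of 42. At 2 mo GTPases were higher in 0 of 7 cases and lower in 1, beside 4.42% of 9205 genes higher and 0.826% lower. At 12 mo they were higher in 0 of 9 cases and lower in 1, beside 1.81% of 9610 genes higher and 1.34% lower, and 18 of 38 antiviral genes were lower. Each sex in a library came from a few mice at most, so sex and mouse cannot be told apart in these differences.

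A further comparison by age used cells with Plac8 and no Ly6a, which numbered 55, 79 and 449 in the 2, 12 and 24 mo libraries. GTPases were higher at 24 mo in 9 of 11 cases against 2 mo, beside 10.2% of 7113 genes (median log2 ratio 1.82), and in 10 of 11 against 12 mo, beside 8.58% of 7237 genes (1.83). Of all genes 14.1% and 9.15% were lower. The groups differed in kind, since Klf1 was found in 12, 28 and 319 of these cells. Neutrophil genes summed to 40685, 112739 and 16151 CPM and erythroid progenitor genes to 4202, 6148 and 9499 CPM at 2, 12 and 24 mo. Age and cell type could not be told apart in this group.

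The 407 cells were then clustered without the rule genes and without interferon, MHC, proteasome, cell cycle and mitochondrial genes. They formed 7 clusters of 31 to 78 cells, and none held a cell with Xist alone. The erythroid progenitor list summed to between 8234 and 11260 CPM in the 7 clusters. Interferon-list medians ran from 56.4 to 83.2 per 10000, beside 15.9 in the comparison cells. Y-linked comparison cells had a median of 22.8 and an upper quartile of 62.7. All clustered cells were chosen on Ly6a, itself interferon-regulated, so a level above cells without it was partly set by the choice. Erythroid and interferon-regulated genes were found in all 7 clusters.

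They differed in depth, hemoglobin, Plac8 and genes of division. Clusters 3 and 5 (64 and 59 cells) had the highest Plac8 levels, 1023 and 1193 CPM, with hemoglobin medians of 0.419% and 0.366%. Cluster 6 (41 cells), led by hemoglobin genes and Alas2, had Plac8 at 159 CPM, hemoglobin at 5.65% and G2 and M phase genes at 16830 CPM, against 9483 in the rest. Cluster 4 (63 cells) had the lowest Plac8 level, 152 CPM, with hemoglobin at 1.41%. Median depth was 8786 and 11079 UMIs in clusters 3 and 5, and 24267 and 18781 in clusters 4 and 6. Cluster 7 had 7872 UMIs with Plac8 at 290 CPM, and cluster 2 had 24819 with 540. The rule asks for 1 UMI of Plac8 whatever the depth, so deeper cells could enter at a lower level. The part of depth was not tested. Immunoproteasome genes summed to 2793 and 2509 CPM in clusters 3 and 5 and to 856 in cluster 6.

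Cluster 2 (71 cells) held the cells with other blood and stromal genes. Its leading genes were Ighg2b, Igkc, Retnlg, Lcn2, Rgs5 and S100a8, and 60.6% or more of the UMIs of each lay in 1 cell. Ptprc was found in 17 of its cells, against 0 to 5 in each other cluster. Its erythroid progenitor list stood at 8234 CPM, the lowest of the 7, and its median depth was 24819 UMIs. A doublet caller, Scrublet, marked 1 of the 407 cells, and 21 lay among the 6% of kept cells with the highest scores.

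**Figure D5:**
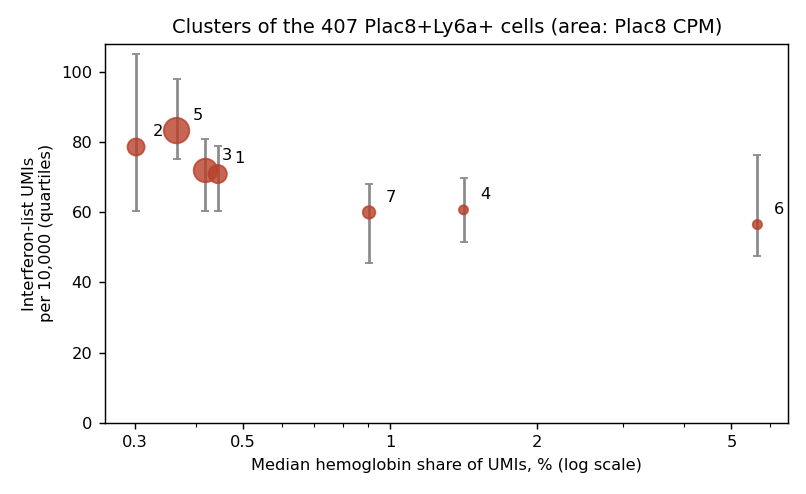
The 7 clusters of Plac8+Ly6a+ cells of the 24 mo library by median hemoglobin share (log axis) and median interferon-list UMIs per 10000 non-hemoglobin UMIs (bars: quartiles over cells), with symbol area in proportion to Plac8 CPM. Interferon medians range from 56.4 (cluster 6) to 83.2 (cluster 5), and Plac8 is highest in clusters 3 and 5.

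The 12 Plac8+Ly6a+ cells of the younger libraries were of other kinds. None held Klf1. Both cells at 2 mo held B cell genes (67 UMIs of the list), and the list of plasmacytoid dendritic cells had 123 UMIs, of which 98.4% lay in 1. At 12 mo the 10 cells held 975 UMIs of the monocyte list and 437 of the fibroblast list, each with UMIs in 4 cells and at least 10 in 3. By sex-linked genes, 1 was Y-linked and 1 held Xist at 2 mo, and 6 and 3 at 12 mo. Plac8+Ly6a+ cells with Klf1 thus numbered 335 at 24 mo, 0 of 7533 cells at 2 mo, which allows a share of up to 0.0398%, and 0 of 6821 cells at 12 mo, which allows up to 0.044%.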

How the data were processed

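Single-cell RNA sequencing of sorted bone marrow stroma was analysed in 3 libraries, 1 per age (2, 12 and 24 mo). The UMI counts per gene and barcode were deposited by the authors without normalization, beside lists of 32285 genes and of barcodes. Per the labels, the submitters' processing notes name Cell Ranger 6.1.2, Seurat 4.2.3, R 4.0.2 and mm10, and the deposited counts carry no later step. Flow cytometry, imaging and transplantation were not analysed here.

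A cell was kept if it held from 200 to 10000 genes, from 500 to 100000 UMIs and a mitochondrial share under 7.5%. Counts were summed over the cells of a group and given as CPM of UMIs that are not from hemoglobin genes, with exact Poisson intervals. Ratios have conditional binomial and shares Clopper-Pearson intervals at 95%. Cells are not replicates and each age is 1 library, so no test was run and no p value is given. Genes were counted with at least 50 UMIs in both groups together and called past 2-fold. A count of 0 was bounded by 3 counts. Counts come from transcript ends and were not scaled by length.

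Genes were named by list, and by the 12 highest and 12 lowest ratios among genes with at least 100 UMIs in both groups together. Rule, hemoglobin, mitochondrial, Xist and Y-linked genes were left out of these rankings. The rule for the cells and the gene lists were chosen with earlier results of these data known. Scanpy 1.11.5 clustered the cells (Leiden, resolution 1) and ran Scrublet, whose calls were not removed in the values given. Scrublet marked 0.982%, 0.0880% and 1.53% of cells at 2, 12 and 24 mo, so few at 12 mo that the caller did not work there. The counting of genes past 2-fold was tested on simulated data. Promoters came from RefSeq on GRCm38.p6. Gene positions came from GENCODE M21, in which 32235 gene IDs were found. Analyses ran in Python 3.11.15 with numpy 2.4.6, scipy 1.17.1 and pandas 2.3.3. Some results are not reported here.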

Additional observations from a re-analysis of the deposited data

How the results depend on the processing

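No paired analysis was possible because each age is 1 library and the labels give no replicate. Of 78 values recomputed under the alternatives, 60 stayed within the limit for a change, which was the interval of a share, 1.5 times a count or 1.5-fold for a median, 16 moved beyond it and 2 reversed. The 24 mo share of 4.18% became 2.4% with at least 2 UMIs of Plac8 and of Ly6a and 3.27% with no UMI of Cxcl12 or Pf4. It was 1.55% with cells thinned to 2000 UMIs, a share of a smaller base without the cells under that depth. The counts of 719 higher and 696 lower genes became 319 and 424 at a minimum of 200 UMIs and 1701 and 1509 at a 1.5-fold limit. They were 1504 and 1961 in the 72 members with no Klf1 UMI, and 2505 genes were higher with no minimum of UMIs. Keeping hemoglobin in the denominator moved the median of all genes from 0.05 to 0.19 and the counts to 951 and 532. The number of clusters, 7, was 4 at a resolution of 0.5. Removing Scrublet calls left 406 members and a share of 4.24%. Alternatives chosen after seeing the data follow. Against Y-linked comparison cells the GTPase median of 3.38 was 2.58, and with hemoglobin under 1% the counts were 327 and 55. The age ratios of GTPases were 1.82 against 2 mo and 1.83 against 12 mo in cells with Plac8 and no Ly6a. They were 3.45 and 2.78 in Y-linked Klf1+ cells and reversed to −0.76 and −1.30 in Klf1+ cells with Xist. The GTPases that reached the minimum of UMIs differed between these groups. The cause of these changes was not tested, beyond what fewer cells, fewer genes or another limit does by construction. Leaving out the 6% of cells with the highest doublet scores left 386 members and a share of 4.22%. With 1 library per age, depth limits only the counting error, and the spread between mice is not known.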

Other observations

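In the same libraries, LepR+ stromal cells, taken as cells with Lepr and at least 5 UMIs of Cxcl12, gave these values by sex. At 24 mo, Ly6a had UMIs in 33.2% [30.3 to 36.1] of 1058 Y-linked cells and in 3.05% [0.997 to 6.97] of 164 cells with Xist, at median depths of 5327 and 4237 UMIs. Their interferon-list medians were 79.3 and 69.6 per 10000, with upper quartiles of 176 and 89.5. At 12 mo Ly6a had UMIs in 46.3% [40.0 to 52.6] of 255 Y-linked cells and in 8.0% [4.95 to 12.1] of 250 cells with Xist, at median depths of 8797 and 4479 UMIs, and the part of depth in these shares was not tested, while the interferon-list medians stood in the opposite order, at 68.3 and 96.1. At 2 mo the Ly6a shares were 1.37% and 1.72%. In LepR+ cells, Ly6a and the interferon lists gave different orders of the sexes at 12 mo, whereas in Klf1+ cells of 24 mo both were higher in Y-linked cells. These cells were chosen without regard to Ly6a, and the number of mice behind each group is not known.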
